A study of Mus musculus with 3 samples.

Results

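The genes described here are 50 genes of mitosis, the spindle and the kinetochore, read on 3 one-colour Agilent arrays of mouse liver. They were taken by name from a list that was chosen with earlier results of these data known. They were found by the RefSeq accession of each probe, and 69 probes belonged to them. Of the 50 genes, 44 had a probe well above background on all 3 arrays, out of 13623 such genes among the 20280 named on the arrays. The brightest such probe stood for the gene.

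Each array held RNA from the liver of C57BL/6J mice that had received, by hydrodynamic tail vein injection, a plasmid for human YAP. The groups were YAP (WT), the wild-type protein, and YAP (1SA) and YAP (2SA), forms that the study describes as active mutants, all at 2 days. Per the methods, males of 8 weeks were injected, and the plasmid used the hepatocyte-specific AFP enhancer and a minimal albumin promoter, with a Myc tag on YAP. Expression was mosaic, so the liver RNA also came from hepatocytes without the plasmid and from other cells. No array of an uninjected liver was analysed here, and all 3 livers had undergone the injection, which itself injures liver cells.

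There was 1 array per group. No difference below has a replicate check or a test, and construct and liver sample cannot be told apart. The labels do not say if RNA of several animals was pooled, and the WT title ends in 2, a number with no stated meaning. In whole liver, fewer cells of a type and less RNA per cell cannot be told apart.

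A dividing cell enters mitosis when CDK1 bound to cyclin A or B is switched on. Chromosomes are then packed by condensin, attached through kinetochores to a spindle shaped by kinesins and Aurora kinases, and held under the spindle checkpoint until the anaphase-promoting complex (APC/C) releases the sister chromatids. Most of these genes are transcribed in G2 and M phase and kept silent in resting cells by the DREAM complex, while B-MYB and FOXM1 switch them on. Adult hepatocytes are mostly resting and re-enter the cycle after injury, and YAP is a coactivator known to drive cycle genes in liver.

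The 75th percentile of intensity, to which each array was scaled, was 290.8 (WT), 276 (1SA) and 319 (2SA). Hepatocyte markers were bright on every array, with Alb, the gene of albumin, at 372102 on WT, 377413 on 1SA and 333769 on 2SA. Values below are either intensities as deposited or differences of log2 intensity after this scaling, where 1 is 2-fold. The SD of a difference between arrays from repeated spots of a probe was 0.10, and 2 SDs, 0.21, serve as the spot limit. For probes below -2 on the normalised log2 scale this limit was 0.50, and 7 of the 44 genes lay there on average. It says nothing about how livers of 1 group would differ. Where 3 intensities follow each other they are for WT, 1SA and 2SA, and of a pair of differences the first is 1SA minus WT and the next 2SA minus WT, unless stated.

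The mitosis genes were higher in both mutant livers than in the WT liver. In 1SA, 43 of the 44 measured genes were above WT, against 49.7% of all measured genes, and 38 were above by more than the spot limit, against 15.9% of all. At least 2-fold higher were 4 of the 44, against 0.727% of all measured genes, and at least 1.5-fold higher were 29, against 3.08%. The median difference was 0.66, with quartiles of 0.42 and 0.81, and over all measured genes it was -0.0017. Within the spot limit were 6 genes, against 65.2% of all, and none lay below it, against 18.9%. None was at least 2-fold lower (1.14% of all genes) or 1.5-fold lower (4.68%).

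In 2SA, 43 of the 44 genes were above WT, against 43.6% of all genes, and 37 were above by more than the spot limit, against 15.5%. At least 2-fold higher were 10, against 1.12% of all genes, and at least 1.5-fold higher were again 29, against 3.79%. The median was 0.83, with quartiles of 0.44 and 0.96, and over all measured genes it was -0.030. Within the spot limit were 6 genes, against 65.4%, and Pttg1 was the 1 mitosis gene below it, against 19.1% of all genes. None was at least 2-fold lower (0.543% of all genes) or 1.5-fold lower (3.02%). Of the 7 dim genes, 4 in 1SA and 6 in 2SA were above WT by more than the limit for dim probes. With the normexp background correction the medians were 0.51 in 1SA and 0.50 in 2SA, and 1 and 2 genes were at least 2-fold higher, against 0.367% and 0.455% of all genes. With a stricter filter on dim probes, which kept 24 genes, 0 and 4 were, against 0.525% and 0.688%. Both comparisons share the WT array, so a low level on that array would raise both sets of differences.

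**Figure D1:**
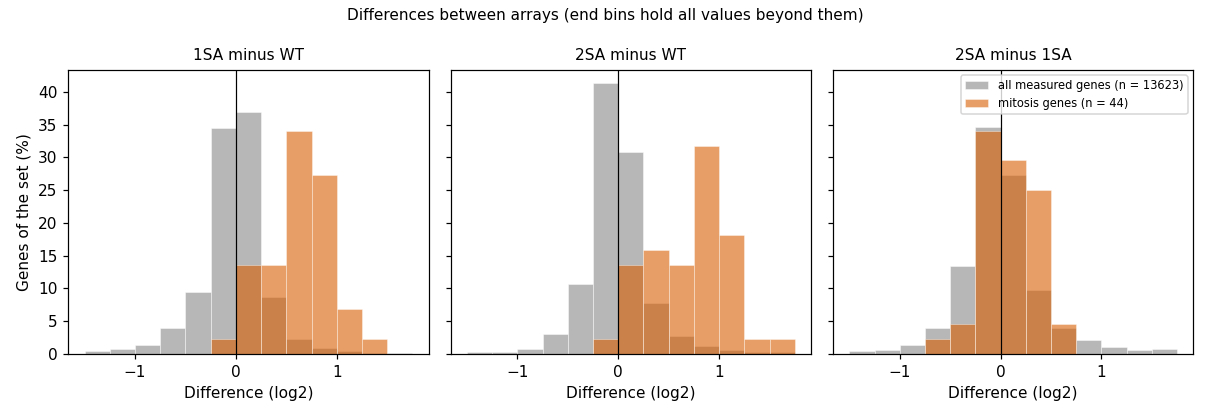
Percent of genes in each bin of the log2 difference between 2 arrays, for all 13623 measured genes (grey) and the 44 measured mitosis genes (orange). All but 1 of the 44 genes lie to the right of 0 in each comparison with WT, with medians of 0.66 and 0.83, and around 0 between the mutants, with a median of 0.13.

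Promoters of such genes are known for a CHR element, with the letters TTTGAA, and for CCAAT boxes, the letters CCAAT. Promoter sequences from RefSeq (GRCm38.p6), running from 250 bases before the start of transcription to 50 after it, were at hand for 42 of the 50 genes. On either strand, 27 of the 42 held TTTGAA (64.3%), against 20.2% of 27025 genes with a promoter. CCAAT was held by 29 (69.0%), against 41.1%, and both motifs in 1 promoter by 22 (52.4%), against 7.97%. The letters GGAATG, the core of the motif of TEAD, the DNA-binding partner of YAP, were in 5 of the 42 promoters (11.9%), against 16.6%. Counting the 250 bases before the start alone, TTTGAA was in 16 of the 42 (38.1%), against 18.3% of genes. The motifs were searched apart from each other, so neighbouring matches may share bases. These counts describe letters in a window, and no binding was measured.

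Of the measured genes, 23 with TTTGAA had a median difference from WT of 0.71 in 1SA and 0.84 in 2SA, and 14 without it had 0.63 and 0.65. The ranges of both classes overlapped widely, from -0.066 to 1.01 with the letters and from 0.081 to 1.22 without them in 1SA.

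The last 120 bases before the start are shown for all 8 genes with both motifs there, to show the motif order. Spc25, Cdc25b and Pttg1 follow, as the measured genes with a promoter whose higher difference from WT was lowest, signs kept. Pttg1 thus entered although it was -0.25 in 2SA, beyond the spot limit. Sequences run 5′ to 3′ on the strand of the gene, and capitals mark CCAAT or TTTGAA or the reverse complement of either.
Cdk1 (chr10:69352913-69353032, minus strand): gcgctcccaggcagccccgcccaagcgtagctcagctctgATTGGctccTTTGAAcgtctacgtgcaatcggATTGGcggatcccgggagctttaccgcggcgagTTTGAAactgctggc
Cdc20 (chr4:118437344-118437463, minus strand): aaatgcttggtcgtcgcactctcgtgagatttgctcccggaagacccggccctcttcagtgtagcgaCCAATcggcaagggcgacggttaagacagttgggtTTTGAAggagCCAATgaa
Top2a (chr11:99024190-99024309, minus strand): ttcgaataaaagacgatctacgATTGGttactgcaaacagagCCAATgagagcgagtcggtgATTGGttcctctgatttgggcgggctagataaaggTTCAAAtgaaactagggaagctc
Kif11 (chr19:37376262-37376381, plus strand): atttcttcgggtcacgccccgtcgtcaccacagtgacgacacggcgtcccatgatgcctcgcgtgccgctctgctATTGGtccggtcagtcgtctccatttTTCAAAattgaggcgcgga
Ube2c (chr2:164769809-164769928, plus strand): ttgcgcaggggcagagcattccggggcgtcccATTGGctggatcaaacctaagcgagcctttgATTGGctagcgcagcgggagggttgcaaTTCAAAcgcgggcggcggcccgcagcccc
Espl1 (chr15:102296173-102296292, plus strand): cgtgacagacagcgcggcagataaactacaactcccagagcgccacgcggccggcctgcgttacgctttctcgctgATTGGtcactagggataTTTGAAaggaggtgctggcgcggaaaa
Kif22 (chr7:127042421-127042540, minus strand): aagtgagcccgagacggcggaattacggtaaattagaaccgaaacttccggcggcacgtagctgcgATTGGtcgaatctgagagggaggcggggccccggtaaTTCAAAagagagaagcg
Ckap2 (chr8:22185820-22185939, minus strand): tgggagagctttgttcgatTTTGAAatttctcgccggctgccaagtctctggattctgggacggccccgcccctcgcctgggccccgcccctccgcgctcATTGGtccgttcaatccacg
Spc25 (chr2:69206214-69206333, minus strand): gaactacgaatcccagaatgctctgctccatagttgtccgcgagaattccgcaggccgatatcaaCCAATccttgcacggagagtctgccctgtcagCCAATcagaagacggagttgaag
Cdc25b (chr2:131186828-131186947, plus strand): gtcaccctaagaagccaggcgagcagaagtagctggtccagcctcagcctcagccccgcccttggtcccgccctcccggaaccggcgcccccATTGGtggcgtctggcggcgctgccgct
Pttg1 (chr11:43425982-43426101, minus strand): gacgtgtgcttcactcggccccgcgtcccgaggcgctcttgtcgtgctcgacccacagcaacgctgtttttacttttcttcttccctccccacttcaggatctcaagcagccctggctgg
Counting bases back from the start, TTTGAA or its reverse complement began at -15 in Cdk1, -18 in Cdc20, -23 in Top2a, -19 in Kif11, -29 in Ube2c, -27 in Espl1 and -17 in Kif22, with a CCAAT box farther from the start in each. In Ckap2 the order was the other way, with TTTGAA at -101. Cdk1 held a further TTTGAA at -71. In the same stretch, Spc25 held 2 CCAAT boxes, Cdc25b held 1, and Pttg1 held neither motif. Spc25 held TTTGAA after the start, at +25, and so counts among the 23 measured genes with these letters.

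Cdk1 encodes the kinase that drives entry into mitosis. Its brightest probe had intensities of 158 (WT), 277 (1SA) and 360.0 (2SA), so both mutants were higher, by 0.89 in 1SA and 1.05 in 2SA. A dimmer Cdk1 probe read 19.7, 25.5 and 97.6, with differences of 0.45 in 1SA and 2.17 in 2SA. The first is within the limit for dim probes, and the size of the 2SA difference depended on the probe. A further Cdk1 probe was not well above background on any array. Ccna2, cyclin A2, which pairs with CDK1 and CDK2, followed the bright Cdk1 probe, at 273 on WT, 486 on 1SA and 607 on 2SA, or 0.91 and 1.02.

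The B cyclins are the partners of CDK1 in mitosis. Ccnb2 read 1055 on WT, 1717 on 1SA and 1322 on 2SA, so it was 0.78 above WT in 1SA and 0.19, within the spot limit, in 2SA. Ccnb1 read 261, 394 and 395, with differences of 0.67 and 0.46. Its other probes gave 0.46 and 1.09 in 1SA, the first within the limit for dim probes, and 0.60 and 0.79 in 2SA.

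Differences of Cdc25b and Cks2 from WT were small. Cdc25b, a phosphatase that activates CDK1, read 116, 117 and 129.7, and its differences of 0.081 and 0.020 were within the spot limit. Cks2, a small CDK-binding protein, was 0.20 above WT in 1SA and 0.015 in 2SA, also within it. Cdc25c, a further phosphatase of CDK1, was not well above background on WT, where it read 8.0 against 19.7 on 1SA and 22.2 on 2SA, and it was at least 1.66-fold higher in 1SA and at least 1.62-fold higher in 2SA. Such a bound sets the brighter array against the higher of the lowest signal well above background on the dimmer array and the dim signal itself.

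The APC/C group holds the genes that end mitosis. Cdc20, the activator of the APC/C, read 1226 on WT, 2136 on 1SA and 2404 on 2SA, which is 0.88 and 0.84 above WT. Ube2c, the ubiquitin-conjugating enzyme of the APC/C, was 0.60 and 0.73 above WT, and its other probe gave 0.77 and 0.85. Espl1, the separase that cuts cohesin, read 30.7, 47.7 and 61.5, or 0.71 and 0.87 above WT. Both mutants were thus above WT by more than the limit on each of these genes.

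Cdca5, or sororin, which guards cohesion of sister chromatids, had the largest 2SA difference of this group. It had 10 spots on an array, all kept on WT and 1SA and 9 kept on 2SA, so its error within an array is known. The intensity of its spots ran from 171 to 196 on WT, from 287 to 344 on 1SA and from 481 to 514 on 2SA, so no spot of 1 array reached those of another. The normalised log2 mean was -0.63 ± 0.063 on WT (SD over spots, n = 10), 0.24 ± 0.072 on 1SA (n = 10) and 0.65 ± 0.032 on 2SA (n = 9), and the differences from WT were 0.87 and 1.28. Spots of an array are not replicates of a group.

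Pttg1, securin, the inhibitor of separase, went the other way in 2SA. Its brighter probe read 8591 on WT, 8846 on 1SA and 7955 on 2SA, or 0.12 in 1SA and -0.25 in 2SA. The dimmer probe read 88.5, 82.4 and 66.4 and gave -0.025 and -0.55, so both probes were below WT in 2SA by more than the spot limit. Cdca3, which helps degrade the mitotic inhibitor WEE1, was 0.81 above WT in 1SA and 0.45 in 2SA.

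**Figure D2:**
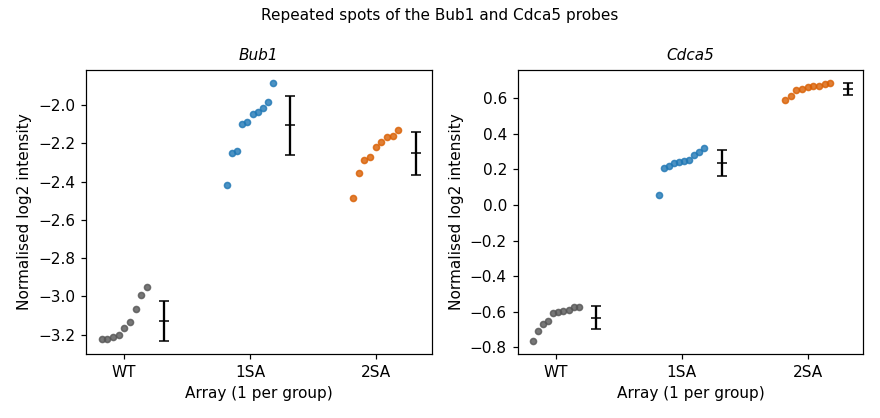
Normalised log2 intensity of each spot of the Bub1 and Cdca5 probes on the 3 arrays, with the mean and SD over the 9 or 10 spots of an array beside them. All mutant spots of both genes lie above the WT spots, while those of 1SA and 2SA overlap for Bub1 but not for Cdca5.

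The checkpoint and mitotic kinases include the gene with the largest difference of the 44. Pbk, a kinase of dividing cells, read 96.3 on WT, 249 on 1SA and 326 on 2SA, or 1.45 above WT in 1SA and 1.62 in 2SA, first of the 44 in both. Bub1, the checkpoint kinase of the kinetochore, read 33.2, 64.1 and 67.1 over 9, 10 and 9 spots. Its spots ran from 31.1 to 37.6 on WT, from 51.6 to 74.8 on 1SA and from 57.1 to 73.1 on 2SA, so both mutants lay clear of WT and overlapped each other. Its differences of 1.02 and 0.88 are on a dim probe, whose SD over spots was 0.10 (WT), 0.16 (1SA) and 0.11 (2SA).

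Ttk, the kinase MPS1 at the head of the spindle checkpoint, was not well above background on WT, at 6.11, and read 19.3 on 1SA and 53.7 on 2SA. It was at least 1.63-fold higher in 1SA and at least 3.91-fold higher in 2SA, and between the mutants it was 1.26 higher in 2SA. Bub1b, or BUBR1, part of the complex that holds back CDC20, was 0.44 above WT in 1SA and 0.86 in 2SA. Melk, a kinase of cycling cells, was 0.69 and 0.94 above WT, and Nek2, which splits centrosomes, 0.74 and 0.53.

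The 3 probes of Mad2l1, MAD2, which binds CDC20 while the checkpoint is on, did not give the same sign. The brightest read 453 on WT, 649 on 1SA and 670.3 on 2SA, or 0.59 and 0.43. The others, at 36.9 to 54.3, gave -0.27 and 0.48 in 1SA and -0.43 and -0.29 in 2SA, within the limit of 0.50 for dim probes. The mean of the 3 probes in 2SA was -0.097, against 0.43 for the brightest.

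The chromosomal passenger complex carries Aurora B to centromeres and to the spindle midzone. Birc5, survivin, read 2192 on WT, 2965 on 1SA and 3123 on 2SA, or 0.51 and 0.38 above WT, and its 2 dimmer probes were 0.77 and 0.99 above WT in 1SA and 0.53 and 0.83 in 2SA. Incenp, the scaffold, was 0.39 and 0.64 above WT, and Cdca8, borealin, 0.60 and 0.85. All 3 subunits thus lay above WT in both mutants by more than the spot limit, with no difference of 2-fold on the brightest probes.

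Among the spindle factors, Aurka, the Aurora kinase of spindle poles, read 403 on WT, 631 on 1SA and 856 on 2SA, or 0.72 and 0.95 above WT. Tpx2, which activates Aurora A on microtubules, lay close to it, at 0.90 and 0.93. Ckap2, a microtubule-associated protein, was 1.70-fold above WT in 1SA and 2.14-fold in 2SA. Nusap1, which bundles spindle microtubules, was 0.65 and 0.86 above WT, and Hmmr, a spindle pole protein, 0.53 and 0.38.

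Dlgap5, or HURP, which stabilises kinetochore fibres, was the spindle gene on which the mutants differed most. It read 28.9 on WT, 31.8 on 1SA and 56.3 on 2SA, which is 0.22 and 0.83, and the first of these is within the limit for dim probes. A dimmer probe was not well above background on WT and gave bounds of at least 1.32-fold in 1SA and at least 1.89-fold in 2SA. The 1SA bound, 0.40 in log2, is also within the limit for dim probes.

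The mitotic kinesins are motors that build the spindle and move chromosomes along it. Kif11, Eg5, which pushes the spindle poles apart, read 20.6 on WT, 39.4 on 1SA and 50.2 on 2SA, or 1.01 and 1.15 above WT. Kif22, a chromosome arm motor, was 0.84 and 0.83 above WT, and Cenpe, which carries chromosomes to the spindle equator, 0.61 and 0.77. Kif4, a chromosome-bound motor, was 0.31 above WT in 1SA, within the limit for dim probes, and 0.84 in 2SA. Kif2c, MCAK, which takes microtubules apart, had 2 dim probes. The brighter gave 0.21 in 1SA and 0.46 in 2SA, both within the limit for dim probes, and the dimmer 0.68 and 0.95.

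Kif15 and Kif18a were not well above background on WT. Their WT signals still exceeded 12.5, the lowest signal well above background on that array. The values that follow are therefore plain ratios to WT and not lower bounds. Kif15, a motor that keeps spindle poles apart, read 13.9 on WT, 18.1 on 1SA and 20.0 on 2SA, or 1.37-fold and 1.31-fold. In log2 these are 0.46 and 0.39, within the limit for dim probes. Kif18a, which limits chromosome movement at the equator, read 14.6, 17.0 and 26.6, or 1.23-fold and 1.66-fold. In log2 these are 0.30, within that limit, and 0.73, above it.

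At the kinetochore, the 4 subunits of the NDC80 complex, which grips microtubules, differed from WT by unequal amounts. Nuf2 read 42.1 on WT, 93.3 on 1SA and 107 on 2SA, or 1.22 and 1.21 above WT. Its other probe was not well above background on any array. Ndc80 read 30.2, 44.0 and 66.2, or 0.62 and 0.99. Spc24 and Spc25, the inner pair, differed less, Spc24 by 0.36 and 0.11. Spc25 read 2850 on WT, 2582 on 1SA and 3565 on 2SA, and its differences of -0.066 and 0.19 were within the spot limit.

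The other centromere genes also varied. Cenpk, of the constitutive centromere network, was 0.61 above WT in 1SA and 1.01 in 2SA, and its other probe gave 0.71 and 1.05. Cenpa, the histone of centromeres, was 0.36 and 0.19 above WT, the second within the spot limit. The probe of Cenpf, a kinetochore protein of G2 and mitosis, was not well above background on any array.

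Among genes of chromosome structure, Top2a, the topoisomerase that untangles sister chromatids, read 116 on WT, 179 on 1SA and 274 on 2SA, or 0.71 and 1.11 above WT. Ncaph, the kleisin of condensin I, read 269.8, 448 and 609, or 0.81 and 1.04. Smc2, an ATPase of both condensins, was 0.49 and 0.59 above WT. Ncapg2, of condensin II, was 0.030 above WT in 1SA, within the spot limit, and 0.31 in 2SA. Ncapg, its counterpart in condensin I, was not well above background on any array.

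Mki67 encodes Ki-67, the antigen used to count cycling cells. It read 624 on WT, 1026 on 1SA and 1034 on 2SA, or 0.80 and 0.59 above WT, and its second probe gave 0.79 and 0.51. Foxm1, the transcription factor of G2 and M phase genes, read 126, 207 and 214, or 0.79 and 0.63 above WT. Both genes were thus above WT in both mutants by more than the spot limit.

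**Figure D3:**
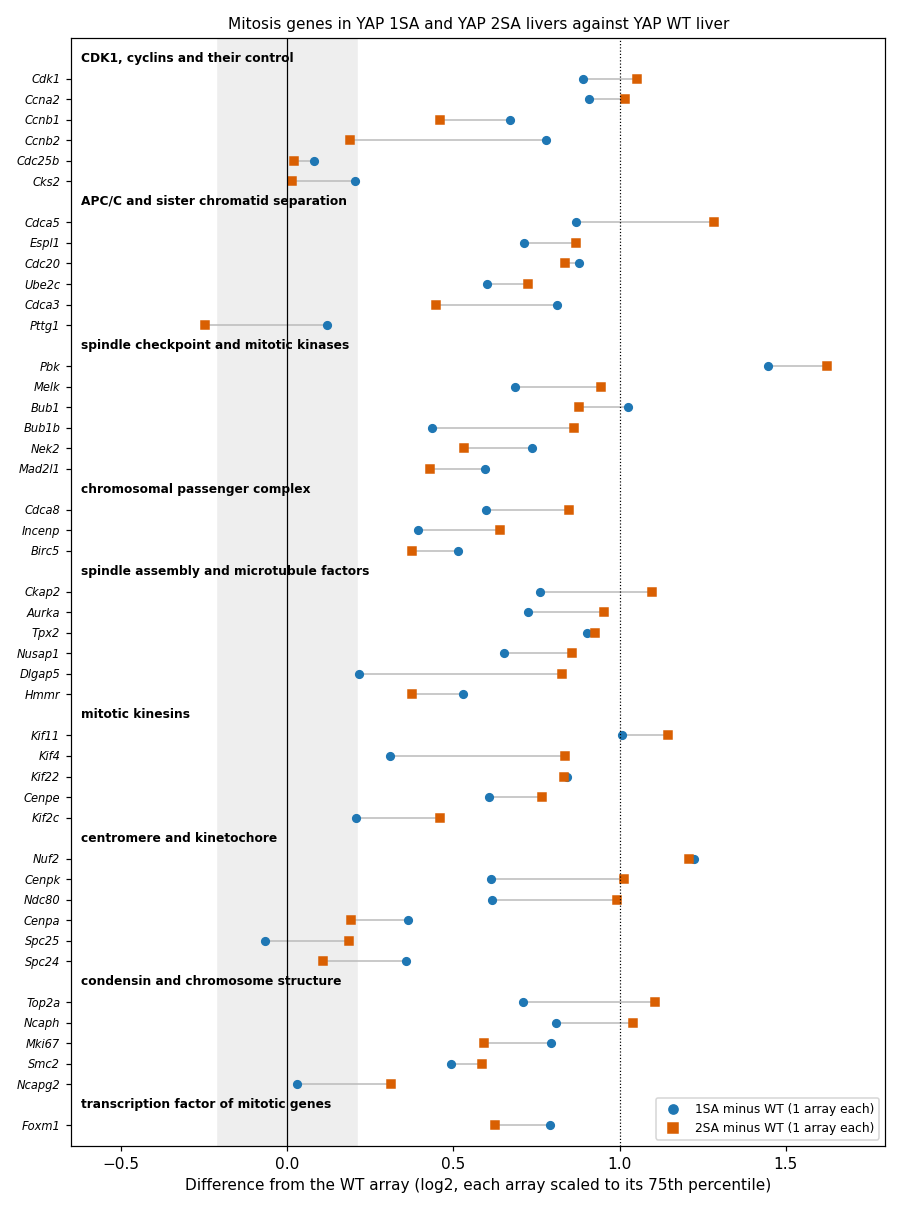
Log2 difference from the WT array of the 44 measured mitosis genes, grouped by role, for 1SA (circles) and 2SA (squares), with the spot limit of 0.21 in grey and a dotted line at 2-fold. All points but Pttg1 in 2SA and Spc25 in 1SA lie above 0, and Pbk lies farthest right at 1.45 and 1.62.

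Of the 44 genes, 11 had several probes well above background on all arrays. The probes of a gene had the same sign for 9 of the 11 genes in 1SA and 10 of the 11 in 2SA, and the gap between probes had a median of 0.17 and 0.30. Mad2l1 and Pttg1 were the genes with both signs in 1SA and Mad2l1 in 2SA. For 42 of the 44 genes the brightest probe had 1 spot on each array.

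Between the mutants the median difference of the mitosis genes was smaller than either median difference from WT. In 2SA minus 1SA, 26 of the 44 genes were above 0, against 45.6% of all genes, and the median was 0.13, against -0.029 over all. That median was 0.0027 with normexp and -0.026 with the stricter filter. By the brightest probes of the 44, none was at least 2-fold higher or lower, against 2.47% and 1.12% of all genes. At least 1.5-fold higher was 1, against 7.00%, and 1.5-fold lower 1, against 4.57%. Outside these counts, a dimmer Cdk1 probe was 1.72 higher in 2SA, and Ttk, not well above background on WT, was 1.26 higher. Within the spot limit were 24 of the 44 (54.5%), near the 55.0% of all genes. By more than the spot limit, 16 (36.4%) were higher in 2SA, against 21.1% of all genes, and 4 (9.09%) were lower, against 23.8%. Of the 7 dim genes, 2 were higher in 2SA by more than the limit for dim probes. The genes higher in 2SA were led by Dlgap5 (0.61), Kif4 (0.53), Bub1b (0.43), Cdca5 (0.41) and Top2a (0.40). The 4 that were lower were Ccnb2 (-0.59), Pttg1 (-0.37), Cdca3 (-0.36) and Spc24 (-0.25). By role, the median was 0.25 for the chromosomal passenger complex (3 genes), 0.23 for condensin and chromosome structure (5 genes) and 0.22 for spindle factors (6 genes). For CDK1, cyclins and their control it was -0.12, over 6 genes of which 5 were within the spot limit. Differences between roles were not tested.

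**Figure D4:**
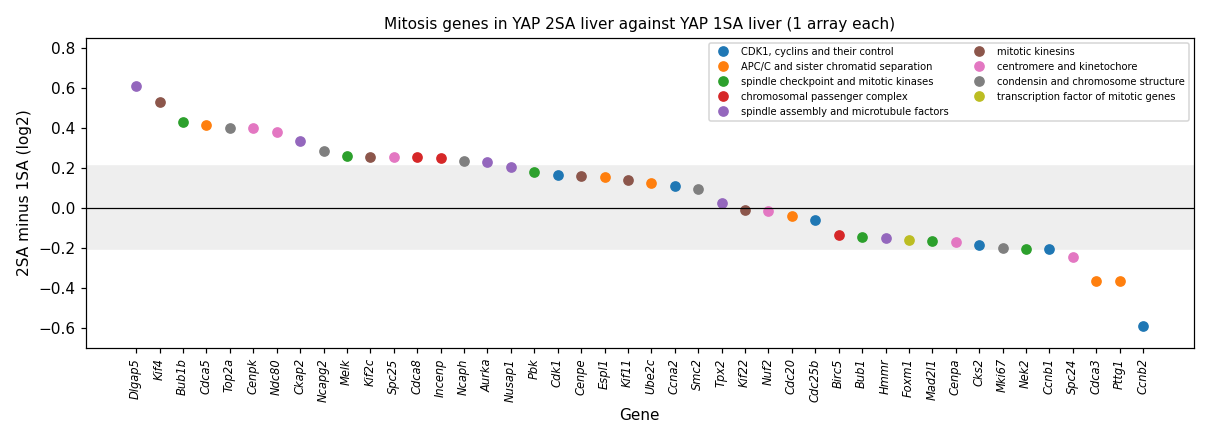
Log2 difference between the 2SA and the 1SA array of the 44 measured mitosis genes in falling order, coloured by role, with the spot limit of 0.21 in grey. Values run from 0.61 for Dlgap5 to -0.59 for Ccnb2, and 24 of the 44 genes lie within the grey band.

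A list of 91 further genes of mitosis, of which 84 were measured, had a smaller median above WT. In 1SA, 74 of the 84 were above WT, against 49.7% of all measured genes, and 10 were below. At least 2-fold higher were 6, against 0.727% of all, and 1 was at least 2-fold lower, against 1.14%. In 2SA, 73 were above WT, against 43.6%, and 11 were below. At least 2-fold higher were 11, against 1.12%, and 1 was at least 2-fold lower, against 0.543%. The median was 0.39 in both mutants. Between the mutants, 2 were at least 2-fold lower in 2SA, against 1.12%, and 0 higher, against 2.47%. Both lists of mitosis genes were chosen with earlier results of these data known.

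The highest of these further genes in 1SA were Bora, an activator of Aurora A (1.92), Cenpm, of the centromere network (1.28), and Depdc1a (1.26). In 2SA they were Mastl, the kinase Greatwall (1.43), Ska1, of the outer kinetochore (1.28), and Kifc1, a kinesin of spindle poles (1.27). Cenpm read 89.6 on WT, 207 on 1SA and 105 on 2SA, so it was high in 1SA alone of the 3 arrays. Among the lowest were Troap (-0.21) and Stil (-0.15) in 1SA, and Wee1, the kinase that holds CDK1 off (-0.28), and Knstrn (-0.28) in 2SA. Plk1, the polo kinase of mitosis, was 0.60 and 0.70 above WT.

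Genes of DNA replication, the step of the cycle before mitosis, were set beside the mitosis genes. Of 46, 44 were measured, with median differences from WT of 0.31 (1SA) and 0.55 (2SA), against 0.66 and 0.83 for the mitosis genes. Between the mutants the replication genes had a median of 0.28 and the mitosis genes 0.13. The difference between both lists was not tested. For 13 measured G1 cyclins, CDK inhibitors and related genes, medians were 0.0050 (1SA) and 0.33 (2SA).

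Markers of blood and immune cells, which can divide in liver, were read on the same arrays. Of 12 erythroid markers 7 were measured, with medians of 0.38 (1SA) and 0.088 (2SA). The summed level of these 7, in units of the 75th percentile, was 71.8 (WT), 123 (1SA) and 91.3 (2SA). Hba-a1 and Hbb-bt, genes of globin chains with near-identical copies, were 0.90 and 1.01 above WT in 1SA and 0.45 and 0.53 in 2SA. Of the other measured markers, Alas2, the first enzyme of heme synthesis in red cells, differed by 0.43 and 0.088, Slc4a1, the band 3 anion exchanger, by 0.38 and 0.078, and Tfrc, the transferrin receptor, by 0.26 and -0.61. Klf1, an erythroid transcription factor, differed by -0.11 and 0.26, and Epor, the erythropoietin receptor, by -0.34 and -0.31. Gata1, Rhag and Epb42 were among the markers not well above background on any array. Of 12 lymphocyte markers 9 were measured, with medians of 0.012 (1SA) and 0.44 (2SA) and summed levels of 11.3, 10.9 and 11.7 in the order WT, 1SA, 2SA. Their differences ran from -0.75 to 0.45 in 1SA and from -0.16 to 0.68 in 2SA, with Ptprc, CD45, the marker of all leukocytes, at -0.61 and 0.53. Of 12 neutrophil and monocyte markers 7 were measured, with medians of 0.22 (1SA) and 0.042 (2SA) and summed levels of 48.6, 50.6 and 48.1. Their differences ran from -0.27 to 2.33 in 1SA and from -0.66 to 0.85 in 2SA, with Ccr2, a chemokine receptor of monocytes, the highest in both, at intensities of 141, 674 and 279. Medians in 1SA and 2SA were -0.39 and -0.87 for Kupffer cell markers, 0.034 and -0.12 for sinusoidal endothelial (LSEC) markers, -0.78 and 0.013 for bile duct markers, -0.18 and -0.57 for stellate cell markers, 0.094 and -0.16 for hepatocyte markers, and 0.027 and -0.037 for reference genes. The part of these cells in the mitosis gene differences was not tested.

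**Figure D5:**
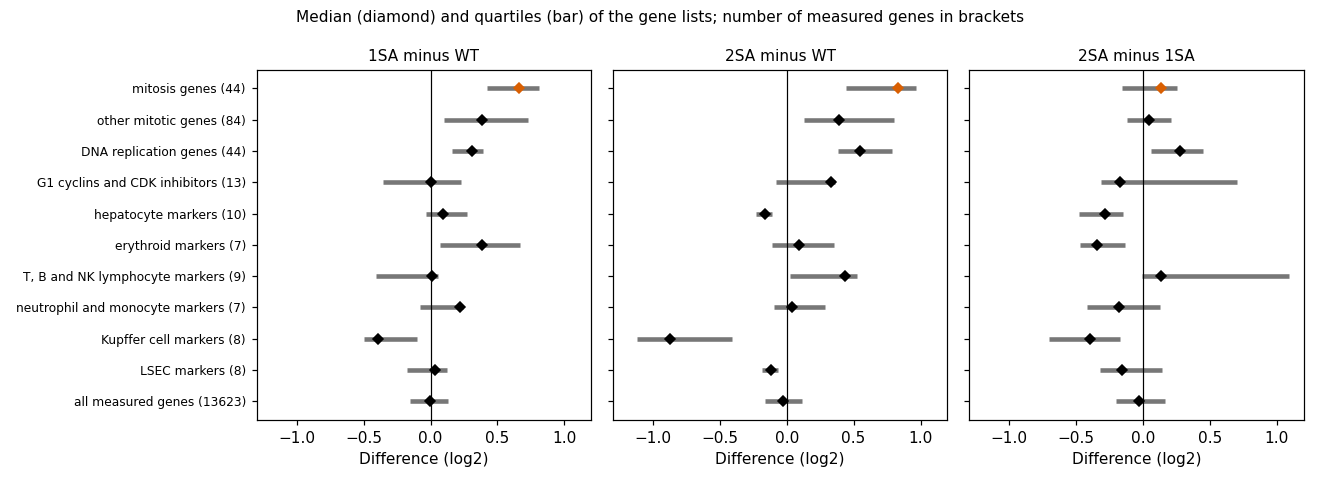
Median (diamond) and quartiles (bar) of the log2 difference for the mitosis genes, 3 further lists of cycle genes, 6 lists of cell markers (hepatocyte, erythroid, lymphocyte, neutrophil and monocyte, Kupffer cell, LSEC) and all measured genes, in the 3 comparisons. The mitosis genes have the highest median of the plotted lists against WT, at 0.66 in 1SA and 0.83 in 2SA, and between the mutants the replication genes lie at 0.28 and the mitosis genes at 0.13.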

How the data were processed

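Gene expression in mouse liver was measured on 3 SurePrint G3 Mouse arrays on 1 slide, 1 each for YAP (WT), YAP (1SA) and YAP (2SA). The authors labelled RNA with Cy3 and processed the scans with Agilent Feature Extraction (version 10.10.1.1, design on mm9, per the file headers). The deposited intensity is background-subtracted, and was not scaled between arrays. The series matrix held it times 1 constant per array.

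Spots flagged as non-uniform or population outliers were left out (148 to 182 per array), each array was scaled to its 75th percentile, and log2 values were averaged over the spots of a probe. A probe was measured when at least 50% of its spots were well above background. Of 55681 probes, 26756 were named through RefSeq accessions (GRCm38.p6). No spot was saturated. With 1 array per group no test was run, and the number of arrays limits the precision. The summary was run on simulated data whose added differences exceeded 2-fold and whose noise was the same for bright and dim probes. That run says nothing about smaller differences or the larger noise of dim probes. The genes, role groups and lists were chosen with earlier results of these data known. Every mitosis gene was described. Of further mitotic genes the rule named the 3 highest and 3 lowest in each mutant, of which some are not reported here, while Plk1 was chosen after its values were seen. Alternatives were the array median, quantile normalisation, normexp (offset 50) on median spot and background intensity, the series matrix, other filters, the mean of probes and other fold thresholds. Hepatocyte, Kupffer cell, LSEC, bile duct, stellate cell and reference gene lists were also computed. Python 3.11.15, pandas 2.3.3, numpy 2.4.6, R 4.3.3 with limma 3.58.1 and matplotlib 3.10.9 were used.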

Additional observations from a re-analysis of the deposited data

Results flagged for a closer look

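The values below went in opposite directions from WT in the 2 mutants, and no difference between the mutants was tested, each group holding 1 array. Pttg1 was 0.12 in 1SA and -0.25 in 2SA by its brighter probe. Spc25 was -0.066 and 0.19. A dimmer Mad2l1 probe was 0.48 and -0.29, unlike the brightest. Among further mitotic genes, Troap was -0.21 and 0.35, Stil -0.15 and 0.091, Wee1 0.11 and -0.28, and Knstrn 0.18 and -0.28. Ptprc was -0.61 and 0.53, and the median of hepatocyte markers was 0.094 and -0.16.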

How the results depend on the processing

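No paired analysis was possible because the design has 1 array in every group, so no replicate could be paired or left out. Where 3 values follow each other they are for 1SA and 2SA, each against WT, and then for 2SA against 1SA; 2 values are the first pair. With normexp, medians were 0.51, 0.50 and 0.0027 for the mitosis genes, and 0.25 and 0.24 against WT for the further mitotic genes, and 1 and 2 mitosis genes were at least 2-fold higher than WT, with 0 of the further genes at least 2-fold higher or lower than WT or lower in 2SA than in 1SA. The offset of normexp shrinks differences of dim probes by construction. With the stricter filter, which kept 24 mitosis genes and 35 further genes, the median of the mitosis genes was 0.59 in 2SA and reversed to -0.026 between the mutants, and that of the further genes was 0.21 and 0.21. Fewer genes could pass the fold threshold there, with 0 and 4 mitosis genes and 0 and 1 further genes higher, and 0 further genes lower in any comparison. With no filter, 50 mitosis genes entered and 1, Ttk, was at least 2-fold higher in 2SA than in 1SA. With the series matrix 2 mitosis genes were at least 2-fold higher in 1SA and 1 further gene in 2SA against 1SA. The cause was not tested.

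With a 1.5-fold threshold, 29, 29 and 1 mitosis genes and 32, 31 and 1 further genes were higher, against 3.08%, 3.79% and 7.00% of all measured genes, and between the mutants 1 mitosis gene and 5 further genes were lower in 2SA. With a 3-fold threshold, 0 and 1 mitosis genes and 1 and 0 further genes were higher than WT, against 0.19% and 0.25% of all, and 0 further genes were lower in 2SA than in 1SA. Of 132 differences of single mitosis genes, 0 of those at least 2-fold reversed. Under normexp 66 of the 132 moved by more than the SD of a difference, 0.10, and the largest move was 0.78. With the mean of probes 14 moved by more than that SD, also by up to 0.78. Under the series matrix 5 small differences changed sign, under normexp 4, all between the mutants, and with the mean of probes 1, Mad2l1 in 2SA. The array median and quantile normalisation changed 0. With the median of all genes shifting by at most 0.10, the medians of both lists were above WT in both mutants. Of all genes past 2-fold, the share higher in 1SA was 39.0%, against 51.0% with normexp; in 2SA it was 67.4%, against 44.7% with no filter.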
